A study of Mus musculus with 12 samples.

Results

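Connective tissue growth factor (*Ctgf*) and *Cyr61* were examined in the murine left atrium (LA) together with 7 further genes known to respond to the transcriptional coactivator YAP or to serum: *Nov*, *Wisp1*, *Wisp2*, *Thbs1*, *Amotl2*, *Ajuba*, and *Lats2*. They were chosen by name, as CCN family and other YAP- or serum-responsive genes, with their levels in these same libraries already known, so their differences between iNICD and control LA are given below as a description and are not tested. All 9 were found among the 54658 gene names of the count table and all 9 passed the expression filter (over 1 CPM, the count scaled to library depth, in at least 6 libraries), which left 13541 genes. The controls carried *αMHC-rtTA* alone, which places the reverse tetracycline transactivator in cardiomyocytes. The iNICD mice carried *αMHC-rtTA* and *tetO-NICD*, which add the Notch1 intracellular domain in those cells while doxycycline is given. There were 6 littermate controls (4 female, 2 male) and 6 iNICD mice (3 female, 3 male), all adults of 2 to 3 months that were fed doxycycline chow for 3 weeks with no washout, and each LA was 1 library. Since whole LA was sequenced, fewer cells of a type and less RNA per cell cannot be told apart.

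In the Hippo pathway, the kinases encoded by *Stk3* and *Stk4* activate those encoded by *Lats1* and *Lats2*, which phosphorylate YAP and its paralog TAZ and keep them out of the nucleus. When the kinases are inactive, YAP and TAZ bind TEAD factors on DNA and raise a set of genes that includes the secreted CCN proteins CTGF and CYR61 and the pathway's own brakes, among them *Lats2* and *Amotl2*. In the heart, this pathway limits cardiomyocyte proliferation, and CTGF is known for its part in atrial and ventricular fibrosis. *Cyr61*, *Ctgf*, and *Thbs1* are also induced within minutes by serum, stretch, and actin dynamics, through serum response factor (SRF) as well as YAP.

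Promoter sequences were found for 4 of the 9 genes in RefSeq (GRCm38.p6), and those of *Cyr61*, *Amotl2*, and *Ajuba* are shown because they hold the TEAD core motif. Each run is the 250 bases before the RefSeq start, written 5′ to 3′ on the strand of the gene, and the capitals mark CATTCC, which is the TEAD core GGAATG read on the opposite strand. The *Cyr61* window lies at chr3:145649986-145650235 on the minus strand, the *Amotl2* window at chr9:102717554-102717803 on the plus strand, and the *Ajuba* window at chr14:54577662-54577911 on the minus strand.
Cyr61: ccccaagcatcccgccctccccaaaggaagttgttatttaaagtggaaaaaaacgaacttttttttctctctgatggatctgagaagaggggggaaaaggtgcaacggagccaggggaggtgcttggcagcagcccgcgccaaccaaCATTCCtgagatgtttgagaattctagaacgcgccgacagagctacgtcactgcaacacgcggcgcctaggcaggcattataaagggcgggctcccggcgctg
Amotl2: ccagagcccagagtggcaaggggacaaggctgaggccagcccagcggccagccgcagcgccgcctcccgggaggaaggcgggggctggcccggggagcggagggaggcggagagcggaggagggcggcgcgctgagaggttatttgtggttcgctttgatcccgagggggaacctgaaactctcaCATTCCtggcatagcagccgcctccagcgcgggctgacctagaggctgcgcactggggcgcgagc
Ajuba: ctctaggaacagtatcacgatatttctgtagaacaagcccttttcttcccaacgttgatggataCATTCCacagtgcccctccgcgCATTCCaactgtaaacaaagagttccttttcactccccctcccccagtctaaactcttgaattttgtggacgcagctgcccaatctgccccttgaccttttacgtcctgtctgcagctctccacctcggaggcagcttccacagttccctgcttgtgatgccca
The motif began 103 bases before the RefSeq start of *Cyr61*, 65 bases before that of *Amotl2*, and 186 and 164 bases before that of *Ajuba*. For *Amotl2* the RefSeq start lies downstream of the GENCODE start, so its window is inside the gene span given below (102716672 to 102733418). The motif was searched on both strands and was found in 12.6% of 32851 promoter windows of this length and in 11.1% of the 13379 windows of tested genes. Neither of the 2 *Lats2* windows held these letters, and both lie inside the GENCODE span of *Lats2*. The RBPJ motif TGGGAA, the DNA core bound by the Notch effector complex, was found on the minus strand 205 bases before the start of *Ajuba* and in 21.6% of all windows. The AP-1 motif TGANTCA (6.75% of all windows) and the SRF CArG box (1.47%) were in none of the windows of these genes, and the motifs do not overlap each other. A match in letters is a description and not a binding site.

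Library totals ran from 21432632 to 27182038 counts. *Notch1*, the source of the transgene, checked the labels: its level was 108 to 131 normalized CPM (CPM scaled by the TMM factors) in the controls, with a median of 115, and 2975 to 4077 with a median of 3245 in the iNICD LA, and reads of the transgene and the endogenous gene cannot be told apart. Control replicate 5, a male, stood apart across the transcriptome: in it 1498 of the tested genes (11.1%) differed by 2-fold or more from the average of its group mates, against 159 to 384 genes in the other 11 libraries. Its TMM factor was 0.863, against 0.973 to 1.06 in the others. Differences between the groups are therefore given with and without this library. Of the 5 atrial markers listed, *Nppa*, *Sln*, *Myl7*, and *Myl4* were abundant in both groups. *Bmp10* was at 1.12 to 31.6 normalized CPM in the controls and 0.0757 to 10.1 in the iNICD LA. The 3 ventricular markers summed to 1.28 to 4.51 normalized CPM over both groups.

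*Ctgf* was the most abundant of the 9 genes and was lower in every iNICD LA than in every control. *Cyr61* was 6.59-fold and *Ctgf* 5.61-fold lower on average, *Amotl2* was 1.47-fold lower, and the 3 other CCN genes tested lay close to or within the range of the controls. The size of the difference in *Thbs1* rested on control replicate 5. Across the transcriptome, edgeR (quasi-likelihood test, Benjamini-Hochberg adjustment) found 181 genes lower (1.34% of those tested) and 377 higher (2.78%) at an adjusted p under 0.05, and 304 lower (2.25%) and 495 higher (3.66%) without control replicate 5. Among the 9 genes, *Ctgf*, *Cyr61*, and *Amotl2* were on the lower side of that threshold and 0 on the higher side (at an unadjusted p under 0.05, 7 lower and 0 higher; with DESeq2, 4 lower and 0 higher), with the same counts, 3 and 0, without control replicate 5. Over all tested genes, 8.09% were lower and 9.32% higher at an unadjusted p under 0.05, and DESeq2 called 444 lower and 615 higher. Groups did not overlap, iNICD lower, for 169 genes (1.25%), *Ctgf* and *Amotl2* among them, and did not overlap, iNICD higher, for 350 (2.58%), none of them among these 9. Because this comparison chose the genes, nothing is read from these shares. Their median log2 fold change was −0.56 with all libraries and −0.32 without control replicate 5, beside −0.01 and 0.00 for all tested genes.

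**Figure D1:**
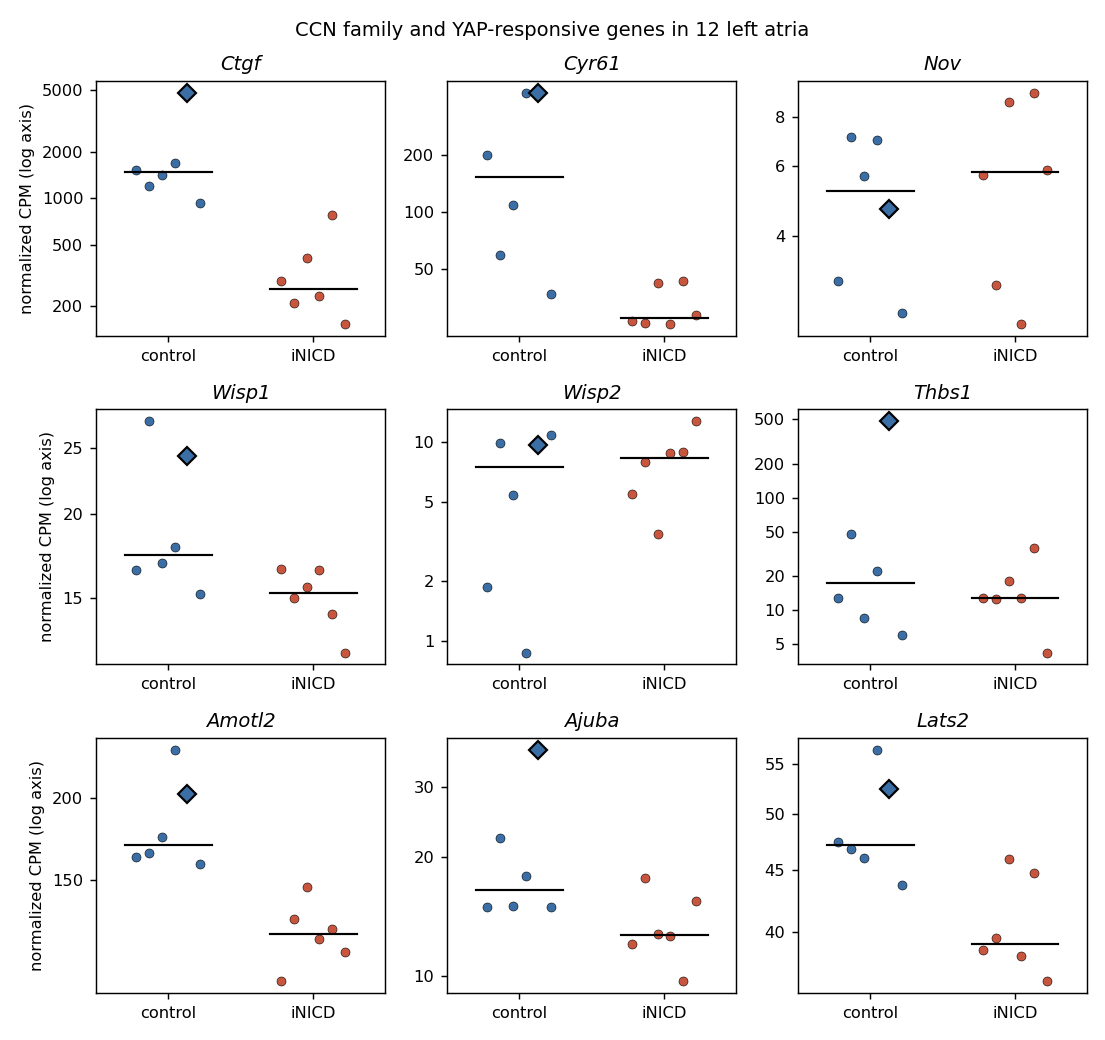
Normalized CPM (log axis) of the 9 genes in each of the 6 control (blue) and 6 iNICD (red) left atria, with control replicate 5 as a diamond and the median of each group as a bar. *Ctgf* and *Amotl2* do not overlap between the groups, *Cyr61* spans 36.7 to 428 in the controls and 25.3 to 42.9 in the iNICD LA, and *Thbs1* reaches 484 in control replicate 5 alone.

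*Ctgf* (named *Ccn2* in newer annotation; chromosome 10, 24595442 to 24598683, plus strand, GRCm38) encodes a secreted matricellular protein. Its level was 929.5 normalized CPM in the lowest control, 1469 at the median, and 4841 in the highest, which was control replicate 5. In the iNICD LA it was 152 in the lowest, 259.7 at the median, and 783 in the highest. The highest iNICD library thus lay below the lowest control. The log2 fold change was −2.49 (SE 0.48), and −1.97 (SE 0.37) without control replicate 5, which held 3.58 times the mean of the other controls. Without it the controls ranged from 929.5 to 1690 and their coefficient of variation fell from 74.8% to 21.8%, against 67.0% in the iNICD LA. Within females alone the log2 fold change was −2.27 (SE 0.23) and within males alone −2.91 (SE 0.96), but control replicate 5 is 1 of only 2 male controls. The other male control held 929.5 and the male iNICD LA held 231, 783, and 152. An antisense gene, *Gm15270*, overlaps *Ctgf* and held 16 to 81 counts in a library, against 3705 to 103431 for *Ctgf*.

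*Cyr61* (*Ccn1*; chromosome 3, 145646976 to 145649981, minus strand), the closest relative of *Ctgf* in function and an immediate early gene itself, varied far more among controls. The lowest control held 36.7 normalized CPM, the median was 154, and controls 4 and 5 held 428 and 427. All 6 iNICD LA lay between 25.3 and 42.9, with a median of 27.4. Of the 6 iNICD libraries, 4 were below every control and all 6 below the control median, and the overlap was with control 6 alone. The log2 fold change was −2.72 (SE 0.55), and −2.39 (SE 0.52) without control replicate 5. Its spread did not depend on that library, since the coefficient of variation was 84.7% over the 6 controls and 95.6% over the other 5, but 26.4% in the iNICD LA. Within females the log2 fold change was −2.66 (SE 0.64) and within males −2.87 (SE 0.93). The male value rests on control replicate 5, since the other male control held 36.7 and the male iNICD LA held 25.3, 42.9, and 28.3.

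The other CCN genes are matricellular proteins too. *Wisp1* (*Ccn4*; chromosome 15, 66891320 to 66923201), a WNT-inducible gene, ranged from 15.2 to 27.4 normalized CPM in the controls (median 17.4) and from 12.4 to 16.5 in the iNICD LA (median 15.3). Of the iNICD libraries, 3 lay below every control, and the log2 fold change was −0.39 (SE 0.15), or −0.32 (SE 0.14) without control replicate 5. *Nov* (*Ccn3*; chromosome 15, 54745702 to 54754039), which counteracts CTGF in several tissues, ranged from 2.55 to 7.08 (median 5.17) in the controls and from 2.39 to 9.19 (median 5.78) in the iNICD LA. The groups overlapped over nearly their whole range, with a log2 fold change of 0.21 (SE 0.36), or 0.19 (SE 0.38) without control replicate 5. *Wisp2* (*Ccn5*; chromosome 2, 163820861 to 163833146), which lacks the C-terminal domain of the other CCN proteins, ranged from 0.87 to 10.8 (median 7.51) in the controls and from 3.43 to 12.7 (median 8.34) in the iNICD LA. Its log2 fold change was 0.30 (SE 0.51), or 0.45 (SE 0.54) without control replicate 5, and 2 controls, replicates 1 and 4, lay below every iNICD library. The sixth family member, *Wisp3*, was at 0 to 6 counts in a library and was not tested.

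*Thbs1* (chromosome 2, 118111876 to 118127133, plus strand) encodes thrombospondin-1, an extracellular activator of latent TGF-β. Its control levels were 6.02 normalized CPM at the lowest and 17.4 at the median, with 484 in control replicate 5 and no more than 47.5 in any other control. The iNICD LA ranged from 4.14 to 35.7 (median 12.9) and, except for iNICD replicate 6, stayed inside the span of the 5 remaining controls. Control replicate 5 held 25.0 times the mean of the other controls. With it the log2 fold change was −2.59 (SE 1.04), and without it −0.28 (SE 0.56), so the size of the difference was set by this library. In females alone it was −0.64 (SE 0.53) and in males alone, where control replicate 5 is 1 of 2 controls, −3.82 (SE 1.67).

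**Figure D2:**
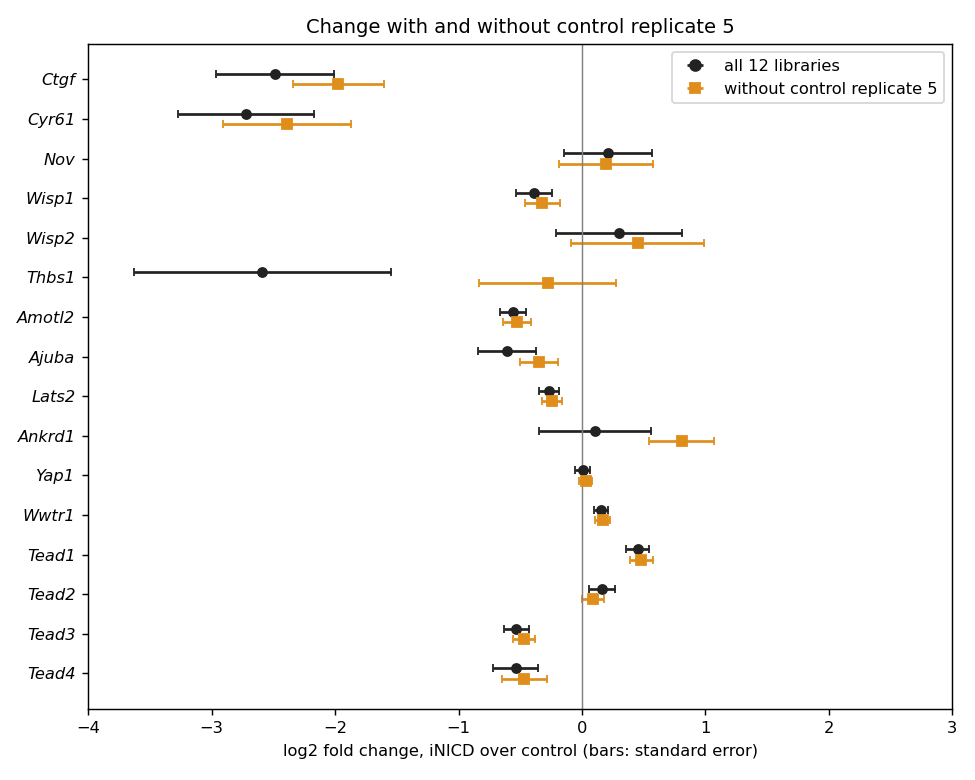
Log2 fold change of iNICD over control (horizontal axis) with its standard error (bars) for the 9 genes, *Ankrd1*, and the YAP, TAZ, and TEAD factors, over all 12 libraries (black circles) and without control replicate 5 (orange squares). *Thbs1* moves from −2.59 to −0.28 and *Ankrd1* from 0.10 to 0.81, while *Amotl2* stays at −0.56 and −0.53.

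*Amotl2*, *Lats2*, and *Ajuba* act in the Hippo cascade itself. *Amotl2* (chromosome 9, 102716672 to 102733418, plus strand), an angiomotin that holds YAP at cell junctions, ranged from 159 to 237 normalized CPM in the controls (median 169.9) and from 105 to 146 in the iNICD LA (median 125). No iNICD library reached the lowest control. The log2 fold change was −0.56 (SE 0.11), and −0.53 (SE 0.11) without control replicate 5, which lay only 1.13 times above the mean of the others. It was −0.54 (SE 0.16) in females and −0.59 (SE 0.14) in males. *Lats2* (chromosome 14, 57689662 to 57758388, minus strand), the kinase that phosphorylates YAP, ranged from 43.8 to 56.5 in the controls (median 47.2) and from 36.5 to 45.9 in the iNICD LA (median 39.1). Of the iNICD libraries, 4 lay below every control, and the log2 fold change was −0.27 (SE 0.08), or −0.25 (SE 0.08) without control replicate 5. *Ajuba* (chromosome 14, 54567472 to 54577558, minus strand), a LIM protein that binds and inhibits LATS kinases, ranged from 14.9 to 37.3 in the controls (median 16.5), with control replicate 5 at the top, and from 9.70 to 17.7 in the iNICD LA (median 12.7). Its log2 fold change was −0.61 (SE 0.23), and −0.35 (SE 0.16) without that library, in which *Ajuba* was at 2.19 times the mean of the other controls.

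Levels of different genes were compared per kilobase of exon. The control medians were 513 normalized CPM per kilobase for *Ctgf*, 76.2 for *Cyr61*, 27.02 for *Amotl2*, 6.77 for *Lats2*, 4.52 for *Ajuba*, 3.90 for *Wisp2*, 3.12 for *Wisp1*, 2.87 for *Thbs1*, and 1.80 for *Nov*. The lowest control for *Ctgf*, at 325 per kilobase, lay above the highest for *Cyr61*, at 212. *Cyr61* (18.2 to 212) and *Amotl2* (25.3 to 37.7) overlapped, *Amotl2* lay above *Lats2* (6.28 to 8.10), and from *Lats2* down each neighbour overlapped the next. In the iNICD LA *Ctgf* still had the highest median (90.8 per kilobase), and *Amotl2* (19.8) stood above *Cyr61* (13.6), the reverse of the control order, with ranges of 16.7 to 23.3 and 12.5 to 21.3 that overlapped.

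Whether the genes followed *Ctgf* from animal to animal was asked within the 6 iNICD LA, a measure that the choice of genes did not use. Over the 8 relations computed, 0 passed a Benjamini-Hochberg adjusted p of 0.05 by Pearson's r (two-sided exact permutation tests of log2 normalized CPM). *Thbs1* had r = 0.93 (exact permutation p = 0.00972, adjusted 0.0778) and Spearman's rho = 1.00 (exact permutation p = 0.00278, adjusted 0.0222), and r = 0.92 without the 2 libraries farthest from the median of *Ctgf*. With CPM that were not TMM-scaled, rho was 0.94 and its adjusted exact permutation p 0.133, so that call rested on the scaling. *Lats2* had r = 0.86 (exact permutation p = 0.0222, adjusted 0.0889), *Cyr61* r = 0.83 (exact permutation p = 0.05, adjusted 0.1), and *Ajuba* r = −0.83 (exact permutation p = 0.0417, adjusted 0.1). Their rho were 0.77 (exact permutation p = 0.103, adjusted 0.274), 0.60 (p = 0.242, adjusted 0.387), and −0.77 (p = 0.103, adjusted 0.274). Without the 2 farthest libraries r was 0.84 for *Lats2*, 0.92 for *Cyr61*, and −0.57 for *Ajuba*. For *Nov*, *Wisp1*, *Wisp2*, and *Amotl2*, r was 0.65, 0.19, −0.37, and 0.32 (0.94, 0.07, −0.97, and 0.37 without the 2 farthest libraries, which leaves 4), with adjusted exact permutation p of 0.262 or more for r and 0.387 or more for rho.

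Over all 12 libraries, after subtracting each group's mean, the 5 genes whose log2 levels were most like that of *Ctgf* were *Cacybp* (r = 0.93), *Rbm39* (0.92), *Gm12454* (0.92), *Psmg3* (0.92), and *Tsc22d2* (0.91). Without control replicate 5 they were *Gpr137* (r = 0.92), *Slc22a18* (0.91), *Atg5* (0.90), *Arid5a* (0.89), and *Bcl2l1* (0.89), so the 2 lists shared no gene. Of the genes described here, *Thbs1* ranked 81 among all tested genes (r = 0.83) and 230 without that library (r = 0.68), *Lats2* ranked 428 (r = 0.74) and 66 (r = 0.77), and *Cyr61* ranked 993 (r = 0.67) and 880 (r = 0.52). *Nov* ranked 3163 (r = 0.44) and, without that library, 535 (r = 0.59), ahead of *Cyr61*, while *Ajuba* turned from r = 0.22 (rank 4968) to −0.61 (rank 13014). *Amotl2* had r = 0.45 and 0.36, *Wisp1* 0.35 and 0.08, and *Wisp2* −0.10 and −0.43. These correlations over 12 and 11 libraries share depth and scaling and are a description.

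The factors that would act on these genes were measured as well. *Yap1* was at 162 to 202 normalized CPM in the controls (median 189) and 174 to 195 in the iNICD LA (median 187), with a log2 fold change of 0.01 (SE 0.06, adjusted p = 0.976), or 0.03 (SE 0.06, adjusted p = 0.840) without control replicate 5. *Wwtr1*, which encodes TAZ, was at 115 to 129 (median 122) and 118 to 145 (median 139), with a log2 fold change of 0.15 (SE 0.06, adjusted p = 0.182), or 0.17 (SE 0.06, adjusted p = 0.127) without control replicate 5. Neither passed the test in either fit.

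Of the DNA-binding partners, *Tead1* rose from 224 to 296 in the controls (median 253) to 308 to 388 in the iNICD LA (median 348), with no overlap. Its log2 fold change was 0.45 (SE 0.09, adjusted p = 0.0131), and 0.48 (SE 0.09, adjusted p = 0.00824) without control replicate 5. *Tead3* fell, from 33.0 to 45.6 (median 36.0) to 21.5 to 31.4 (median 25.1), also with no overlap, with a log2 fold change of −0.53 (SE 0.10, adjusted p = 0.0112), or −0.47 (SE 0.09, adjusted p = 0.00996) without control replicate 5. *Tead2* (0.16, SE 0.11, adjusted p = 0.470) and *Tead4* (−0.54, SE 0.18, adjusted p = 0.134) did not pass, and without control replicate 5 they were at 0.09 (SE 0.09, adjusted p = 0.645) and −0.47 (SE 0.18, adjusted p = 0.182). Over YAP, TAZ, and their TEAD and VGLL partners together, 1 of 8 tested genes was lower and 1 higher, beside 1.34% and 2.78% over all tested genes, and the median log2 fold change was −0.06, or 0.06 without control replicate 5.

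In the Hippo cascade, 2 of 25 kinases, scaffolds, and upstream regulators were lower and 0 higher (5 and 0 at an unadjusted p under 0.05), beside 1.34% lower and 2.78% higher over all tested genes (8.09% and 9.32% unadjusted), and the median log2 fold change was −0.03. The 2 were *Amotl2*, which was chosen on this comparison, and *Wtip*, the only call among the other members of the list. *Wtip*, a LIM protein of the Ajuba family, was at 21.7 to 26.9 normalized CPM in the controls (median 24.7) and 14.6 to 22.5 in the iNICD LA (median 18.1), and 5 of 6 iNICD libraries lay below every control. Its log2 fold change was −0.41 (SE 0.10, adjusted p = 0.0340), and −0.40 (SE 0.10, adjusted p = 0.0371) without control replicate 5. It lost the call in 8 of the 12 fits that left out 1 library (controls 1, 2, and 4 and iNICD replicates 1, 2, 3, 4, and 6), with adjusted p up to 0.0825 over the 12.

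A list of 22 published YAP and TAZ target genes, which includes *Ctgf*, *Cyr61*, *Amotl2*, and *Lats2*, had 20 tested members. Of these, 3 were lower and 0 higher (8 and 0 at an unadjusted p under 0.05; 5 and 0 with DESeq2), and all 3 were *Ctgf*, *Cyr61*, and *Amotl2*, which were chosen on this comparison. Over all tested genes 1.34% were lower and 2.78% higher, and 8.09% and 9.32% at an unadjusted p under 0.05. None of the targets outside the genes chosen here passed the edgeR test, whereas with DESeq2 the 5 were *Ctgf*, *Cyr61*, *Amotl2*, *Lats2*, and *F3* (tissue factor; log2 fold change −0.59, adjusted p = 0.0203 with DESeq2), a gene picked out here with its values in view. The median log2 fold change of the list was −0.14, and −0.09 without control replicate 5. *Ankrd1*, a cardiac ankyrin repeat protein and a widely used YAP readout, was at 1964 to 5880 normalized CPM in the controls other than replicate 5 (median over all 6, 2698), at 14714 in control replicate 5, and at 4087 to 6495 in the iNICD LA (median 5458). All 6 iNICD libraries lay above the control median. Its log2 fold change was 0.10 (SE 0.45, adjusted p = 0.931), and 0.81 (SE 0.26, adjusted p = 0.0977) without control replicate 5. It was positive in females alone (0.57, SE 0.34) and negative in males alone (−0.54, SE 0.76), and it ranged from −0.06 to 0.81 over the 12 fits that left out 1 library, so it has no settled direction here. The name YAP-responsive comes from prior knowledge of these genes, and these data hold no measure of YAP activity other than transcripts.

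**Figure D3:**
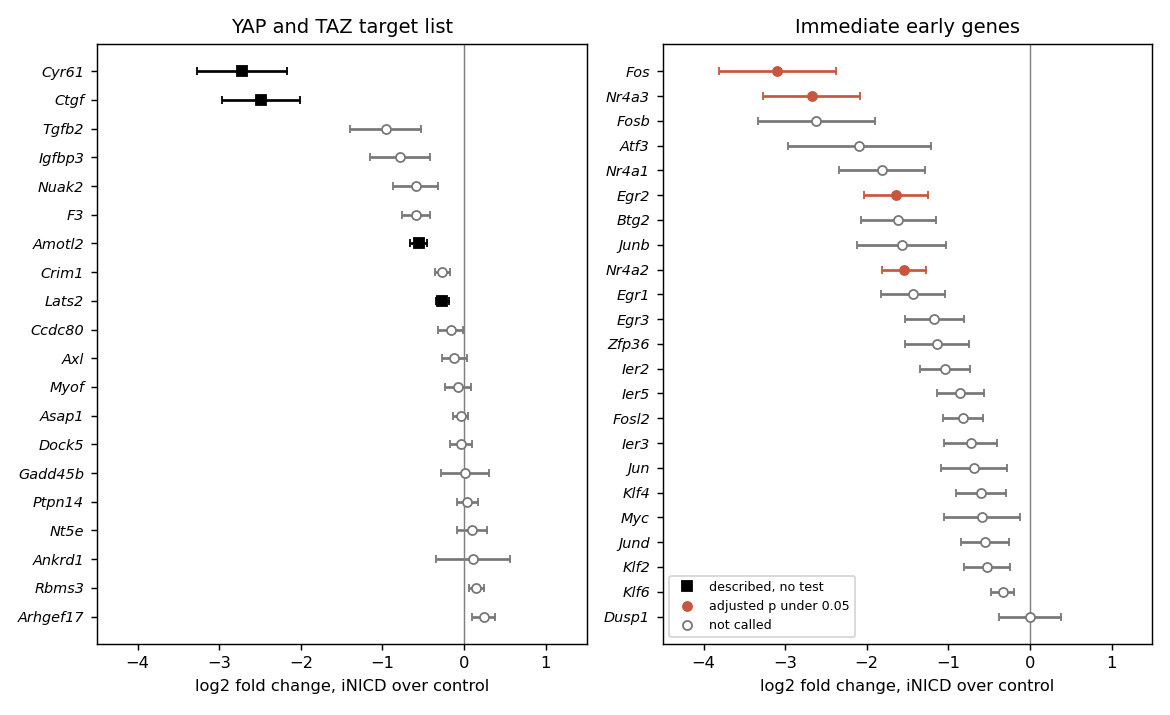
Log2 fold change of iNICD over control (horizontal axis) with its standard error for the tested members of the YAP and TAZ target list (left) and of the immediate early list (right). Black squares are genes chosen on this comparison and described without a test, filled red circles are other genes with an adjusted p under 0.05, and open circles did not pass. In the target list no red circle appears, and in the immediate early list all 23 estimates are at or below 0 (without control replicate 5, *Myc* is at 0.16), with *Fos*, *Nr4a3*, *Egr2*, and *Nr4a2* in red.

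Of 23 tested immediate early genes, which serum and stretch induce within minutes, 4 were lower in the iNICD LA, 0 were higher, and 19 did not pass. At an unadjusted p under 0.05, 17 were lower and 0 higher. Over all tested genes the shares were 1.34% lower and 2.78% higher, and 8.09% and 9.32% at an unadjusted p under 0.05. The estimates of all 23 were at or below 0, that of *Dusp1* at 0.00 with the same mean of 107 normalized CPM in both groups, with a median log2 fold change of −1.14. Without control replicate 5 the median was −0.96 and *Myc* was above 0, at 0.16. The count depended on the test and on single libraries. It was 13 with DESeq2 and 11 with the exact test of edgeR, 10 without control replicate 6, 2 without iNICD replicate 3 or 6, and 1 without iNICD replicate 1, 2, or 4. The count of lower calls over all tested genes moved as well, from 181 to 444 with DESeq2, 279 with the exact test, 196 without control replicate 6, 116 and 143 without iNICD replicate 3 or 6, and 92, 131, and 109 without iNICD replicate 1, 2, or 4.

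*Nr4a2*, an orphan nuclear receptor, was at 2.95 to 9.93 normalized CPM in the controls (median 6.66) and at 1.70 to 2.84 in the iNICD LA (median 2.37). The groups did not overlap, the log2 fold change was −1.54 (SE 0.28, adjusted p = 0.00632; −1.61, adjusted p = 0.00492, without control replicate 5), and the call held in all 12 fits that left out 1 library. *Fos*, the AP-1 subunit, was at 11.2 to 285 in the controls (median 38.1), the highest being control 4, and at 3.86 to 12.5 in the iNICD LA (median 10.5). Its log2 fold change was −3.10 (SE 0.71, adjusted p = 0.0283), or −3.07 (SE 0.75, adjusted p = 0.0319) without control replicate 5, and the call was lost whichever of the 6 iNICD libraries was left out, with adjusted p up to 0.0722. *Nr4a3* (−2.67, SE 0.59, adjusted p = 0.0224) and *Egr2* (−1.64, SE 0.39, adjusted p = 0.0342) also fell, and were lost in 4 (without control 1 or iNICD replicate 1, 2, or 4) and 7 (without control 2 or 4 or iNICD replicate 1, 2, 3, 4, or 6) of those 12 fits. Without control replicate 5 they were at −2.53 (adjusted p = 0.0276) and −1.34 (adjusted p = 0.0446).

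The summed immediate early genes moved with *Cyr61* among the controls. The sum was 761 and 782 normalized CPM in controls 6 and 2, where *Cyr61* was at 36.7 and 59.4. It was 1374 and 1434 in controls 1 and 3, where *Cyr61* was at 199 and 108. It was 1837 and 2894 in controls 5 and 4, where *Cyr61* was at 427 and 428. *Ctgf* followed this order less closely, from 929.5 in control 6 and 1209 in control 2 to 1526, 1412, and 1690 in controls 1, 3, and 4, and it was at 4841 in control 5. In the iNICD LA the sums were 498 to 1137, within which controls 6 and 2 also lie. At those like sums *Ctgf* was at 929.5 and 1209 in controls 6 and 2 and at 152 in iNICD replicate 6 (sum 744) and 408 in iNICD replicate 3 (sum 819). *Cyr61* in the same 4 libraries was at 36.7, 59.4, 28.3, and 42.2, values that overlap. The values of these 4 libraries are a description, and the part of the immediate early genes in the differences of *Ctgf* and *Cyr61* was not tested.

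**Figure D4:**
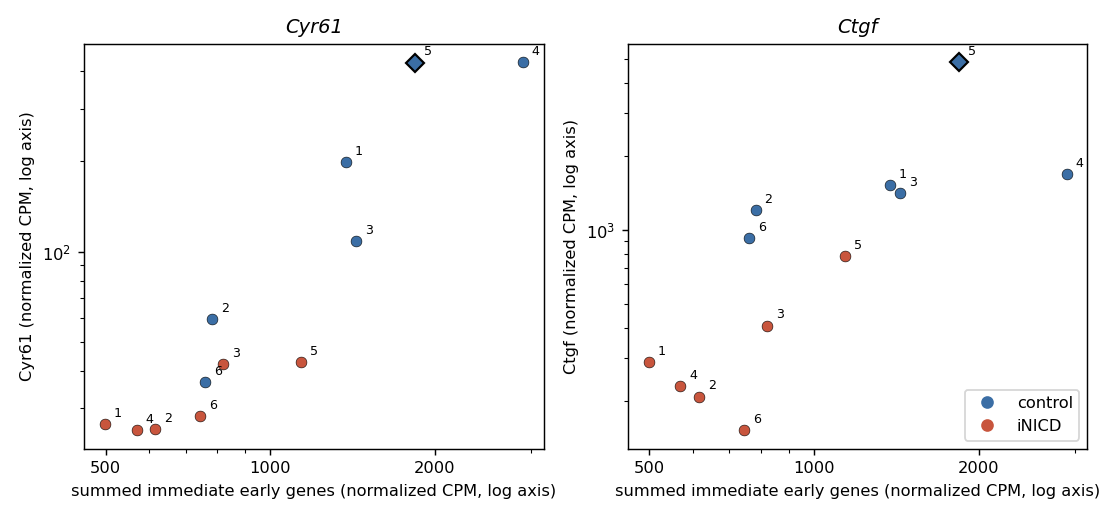
Level of *Cyr61* (left) and *Ctgf* (right) in normalized CPM (log axes) against the summed normalized CPM of the immediate early genes in each control (blue) and iNICD (red) library, numbered by replicate, with control replicate 5 as a diamond. *Cyr61* in controls 2 and 6 (59.4 and 36.7) lies near the iNICD libraries with like sums. *Ctgf* in these 2 controls (1209 and 929.5) lies above all 6 iNICD libraries (152 to 783).

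Genes of SRF and its cofactors and their actin cytoskeletal targets gave 1 lower and 1 higher call of 18 (3 and 3 at an unadjusted p under 0.05), beside 1.34% and 2.78% over all tested genes (8.09% and 9.32% unadjusted), with a median log2 fold change of −0.37 that became −0.10 without control replicate 5. The lower gene was *Actg1* (−1.99, SE 0.42, adjusted p = 0.0183), a cytoplasmic actin gene with near-identical copies in the genome. Whether its counts are affected by reads shared with them was not tested, and its value is uncertain. It was at −1.89 (adjusted p = 0.0241) without control replicate 5, and its call was lost without iNICD replicate 1. The higher gene was *Fhl2*, a LIM cofactor of SRF (1.17, SE 0.30, adjusted p = 0.0461), whose call was lost in 10 of the 12 fits that left out 1 library, control replicate 5 among them (adjusted p = 0.0510), and held only without control 3 or iNICD replicate 3. Without control replicate 5, *Srf* itself was lower (−0.59, adjusted p = 0.0401, against 0.0629 with it). Among thrombospondins and other matricellular genes outside the CCN family, which include *Thbs1*, 0 of 11 were lower and 1 was higher (3 and 1 at an unadjusted p under 0.05; the exact test of edgeR gave 1 lower), against those same shares over all genes, with a median of −0.30. That gene was *Tnxb*, a tenascin of connective tissue (0.46, SE 0.10, adjusted p = 0.0267; 0.50, adjusted p = 0.0125, without control replicate 5), whose call was lost in 8 of the 12 fits (without control 1, 2, 3, or 4 or iNICD replicate 3, 4, 5, or 6).

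Markers of the cell types in the LA were compared because CCN genes are expressed by several of them. Of the tested markers, 0 of 7 for fibroblasts, 0 of 5 for smooth muscle, 0 of 6 for endothelium, 0 of 6 for epicardium and mesothelium, 0 of 5 for macrophages and leukocytes, 0 of 1 for adipocytes, and 0 of 1 for ventricular cardiomyocytes passed the edgeR test in either direction, and in each of these lists 0 also had an unadjusted p under 0.05. With 1.34% lower and 2.78% higher over all tested genes, a count of 0 in lists this short tells little. The summed fibroblast markers were at 2789 to 4036 normalized CPM in the controls and 2887 to 4688 in the iNICD LA, with all 7 detected in both groups. Epicardial markers summed to 244 to 331 and 155 to 310. Smooth muscle markers summed to 67.9 to 249.98 in the other 5 controls, 396 in control replicate 5, and 71.6 to 241 in the iNICD LA, and endothelial markers to 736 to 919, 1043, and 685 to 855. Leukocyte markers summed to 175 to 220.1 in the controls and 171 to 257 in the iNICD LA.

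Some cardiomyocyte markers differed between the groups. Of the 5 atrial markers, 4 were lower (*Nppa*, *Myl4*, *Sln*, and *Myl7*), beside 1.34% of all tested genes, and their sum was 34241 to 44028 in the controls and 9269 to 16601 in the iNICD LA, of which *Nppa* made up 20708 to 30718 and 1803 to 7910. *Bmp10* did not pass. Of 6 general cardiomyocyte markers, *Tnnt2* was lower and the other 5 did not pass, and the sum was 57115 to 63141 in the other 5 controls, 71681 in control replicate 5, and 50816 to 59220 in the iNICD LA. The part of cell composition in the levels of *Ctgf*, *Cyr61*, and *Amotl2* was not tested.

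The effect of the genotype on the 9 genes was also compared between the sexes, since 4 of 6 controls but 3 of 6 iNICD mice were female. A sex by genotype term in the edgeR fit was past an adjusted p of 0.05 for 0 of the 9 genes (0 at an unadjusted p under 0.05; lowest adjusted p 0.916), as for 0 of all 13541 tested genes (501 at an unadjusted p under 0.05). The male minus female difference in log2 fold change was −0.62 (SE 0.91) for *Ctgf* and −0.19 (SE 1.16) for *Cyr61*. Without control replicate 5, 1 male control is left, which is assumed to vary like the other groups, and the values rest on that animal. The term was then past the threshold for 0 of the 9 genes (1 at an unadjusted p under 0.05, *Cyr61*, with a lowest adjusted p of 0.939) and for 0 of all tested genes (658 at an unadjusted p under 0.05). The differences were 1.01 (SE 0.87) for *Ctgf* and 2.46 (SE 1.08) for *Cyr61*, both opposite in sign to those with that library. The test does not show that the sexes respond alike. Nor is it independent of the choice of genes. The distance of control replicate 5, 1 of the 2 male controls, for *Ctgf* and *Thbs1* was known at that choice.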

How the data were processed

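The LA of 6 control and 6 iNICD mice was profiled by RNA-sequencing after ribosomal RNA depletion. The authors deposited a table of raw read counts, 1 row per gene name and without normalization, beside a gene length in bases of another unit, which here scaled levels per kilobase. The submitters' processing notes name cutadapt, STAR 2.4.2a, featureCounts of Subread, edgeR, and mm10, whereas the paper's methods describe 2 routes, and the table does not name its counter. The strand setting of the counting is not given in the sources used here, so reads of antisense partners may be shared. Groups, sexes, and replicate numbers come from the sample titles and descriptions. Of 2 controls, replicates 4 and 5, the titles and descriptions exchange the numbers, and the titles were used.

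Genes over 1 CPM in at least 6 libraries were scaled by TMM and tested in edgeR 4.0.16 (R 4.3.3) by its quasi-likelihood F test, two-sided, at a Benjamini-Hochberg adjusted p of 0.05, after the fit was tested on simulated data. The standard errors of log2 fold changes come from its F statistic. DESeq2 1.42.0 served as an alternative, and scipy 1.17.1 gave exact permutation tests. Total counts were 21432632 to 27182038 per library. No 2 libraries of a group were copies (lowest chi-square per gene, 16.7). Gene positions are from GENCODE M21 (GRCm38), whose exon lengths equalled those in the table for the 9 genes, and promoter sequences from RefSeq GRCm38.p6.

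The genes and all lists were chosen with earlier results of these data known. Named beside them are the YAP, TAZ, and TEAD factors, *Ankrd1*, *Notch1*, up to 5 called genes each way per list by size of change, and the 5 genes most like *Ctgf*. The alternatives were 2 other tests, 2 normalizations, 2 expression filters, sex as a covariate, each sex alone, a replicate block, and each library left out in turn. RA libraries were not analysed here.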

Additional observations from a re-analysis of the deposited data

Results flagged for a closer look

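Within each group of 6 libraries, a sample was singled out when its distance to the nearest other sample was an unusually large part of the group's range (Dixon's 95% critical value). Of 70 groups examined, 11 gave such a sample, 6 of them control replicate 5. Chance alone would give about 3.5 of 70, but the count is no measure against chance, since the distance of this library for *Ctgf* and *Thbs1* was known when the genes were chosen and *Cacybp* and *Rbm39* were named for following *Ctgf*.

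Among the genes described, this library was apart for *Ctgf* (4841 normalized CPM, against 929.5 to 1690 in the other controls), *Thbs1* (484, against 6.02 to 47.5), and *Ajuba* (37.3, against 14.9 to 22.3). It was also apart for *Ankrd1* (14714, against 1964 to 5880), *Cacybp* (69.7, against 49.3 to 53.8), and *Rbm39* (213, against 185 to 194). Both of the last genes are among those most like *Ctgf* over 12 libraries and not over the 11 without it.

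*Fos* was apart in control replicate 4 (285, against 11.2 to 87.0 in the other controls), the library with the highest *Cyr61*. *Atg5* was lowest in control replicate 6 (19.2, against 21.3 to 22.4).

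Among iNICD libraries, *Nr4a3* (26.3, against 3.04 to 10.9) and *Egr2* (6.85, against 2.42 to 3.87) were apart in replicate 5, which also held the highest *Ctgf*. *Wwtr1* was lowest in iNICD replicate 6 (118, against 137 to 145), which held the lowest *Ctgf*.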

How the results depend on the processing

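*Ctgf*, *Cyr61*, and *Amotl2* kept a negative log2 fold change under all 23 alternatives, from −2.91 to −1.97, −2.94 to −2.21, and −0.61 to −0.47, which is a description, since this comparison chose them. *Thbs1* ranged from −3.82 (males only) to −0.28 (without control replicate 5). The number of these 9 genes called lower, 3, became 1 in females only and 0 in males only, where fewer libraries were fitted. For the same reason nothing is read from these counts of the chosen genes. Over all tested genes, 181 lower became 444 with DESeq2, 279 with the exact test of edgeR, 0 in males only, and 92 (without iNICD replicate 1) to 304 (without control replicate 5) with 1 library left out. The 377 higher became 615 with DESeq2 and 8 in males only. Lower calls in the Hippo cascade, 2, became 1 with no expression filter, 0 in females only, 0 in males only, and 1 to 2 with 1 library left out. Among YAP, TAZ, and their partners, the 1 lower call became 0 in males only and the 1 higher call 0 in females only and 0 in males only. Lower calls among the YAP and TAZ targets, 3, became 5 with DESeq2, 1 in females only, and 0 in males only. Where no value shows otherwise, the cause was not tested. Normalization moved the median log2 fold change of all genes by less than 0.1. Low counts limit *Wisp2* (22 to 310 counts) and *Nov* (55 to 239).

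Whether the replicate numbers pair the samples is not settled. By title numbers, same-numbered libraries correlated at −0.15 to 0.41 in their deviations from the group means (4 of 6 pairs over 0.1). Of the 6 controls, 3 correlated best with their own number, and 2 did so by description numbers. *Ctgf* was highest in replicate 5 of both groups (4841 and 783 normalized CPM) and lowest in replicate 6 of both (929.5 and 152). With a replicate block, by title or description numbers, 2 of the 9 genes were called lower, *Ctgf* and *Amotl2*. Calls of the 9 genes, kept or lost, are a description, since this comparison chose them. The block gave *Ctgf* −2.47 (SE 0.14) by title and −2.45 (SE 0.38) by description numbers, against −2.49 (SE 0.48) without it. For *Cyr61* the block gave −2.21 by either numbering (not called), and for *Thbs1* −0.97 by title and −0.76 by description numbers. Over all genes it gave 136 lower by either numbering and 332 or 285 higher. Of the other genes named, *Fos* (adjusted p 0.105 by title and 0.0852 by description numbers), *Actg1* (0.0662 and 0.0571), and *Fhl2* (0.103 and 0.125) lost their calls with the block.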
